A study of Mus musculus with 6 samples.

Results

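The cytoplasmic ribosomal protein genes encode the protein part of the 80S ribosome, which translates nuclear-encoded messenger RNA. Their rows were chosen by gene symbol alone (Rpl or Rps with a number and at most a trailing a, l or x, with Rplp0 to Rplp2 and Rpsa), a rule that uses no measured value. The choice held 80 of the 23366 genes listed, 49 of the large subunit and 31 of the small subunit. It left out pseudogenes, the Rps6k kinases and a few ribosomal proteins with other symbols, such as Fau and Rps3a1. The genes were measured by messenger RNA sequencing of palatal shelves, the paired outgrowths of the embryonic upper jaw that fuse into the secondary palate, dissected at E14.25. The KO group held 3 libraries of genotype Kmt2dfl/fl Wnt1-Cre, numbered 1, 2 and 3, in which Cre from the Wnt1 transgene deletes the histone methyltransferase gene Kmt2d in the neural crest lineage. The WT group held 3 libraries labelled only WT, numbered 2, 3 and 4, and whether WT embryos carried the floxed allele or Cre is not given in the sources used here. Both groups were of the same stage and each library is described as a biological replicate of paired shelves. Shelf cells outside the neural crest lineage, such as epithelium, endothelium and blood, keep Kmt2d in this model. The comparison addresses how the loss of Kmt2d from the neural crest changes expression in the palate.

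Gene counts totalled 12721979 to 20203309 in KO libraries and 20785074 to 24916079 in WT libraries. KO replicate 2 stood apart: read pairs that fell in no annotated gene made up 47.5% of its listed pairs and 12.3% to 18.1% of those in each of the other libraries. The 6 skeletal muscle markers summed to 11300 CPM in KO replicate 2 and to 247 to 584 CPM elsewhere. Ttn, the giant muscle protein titin, made up 10200 CPM of that sum and the myosin Myh3 804 CPM. The muscle regulator Myog stood at 27.5 CPM in KO replicate 2, inside the WT range of 20.7 to 31.4 CPM, and Myod1, Tnnt1 and Actc1 stood at 17.1, 62.9 and 201 CPM, above WT highs of 15.7, 41.4 and 146 CPM. The targeted gene, listed as Mll2, had 254, 539 and 193 CPM in KO replicates 1, 2 and 3 and 197, 211 and 171 CPM in WT replicates 2, 3 and 4. Its whole-gene count includes exons outside any deleted part and cells that keep the gene, so it checks no label. All 8 palate mesenchyme markers were detected in every library, with sums of 1500 to 1780 CPM in KO and 1350 to 1380 CPM in WT. Prrx1 alone made up 773, 948 and 682 CPM of the KO sums and 562, 630 and 582 CPM of the WT sums. Of the 8 markers, 4 had a positive log2 fold change, KO over WT, with a median of -0.06. Comparisons are therefore given with and without KO replicate 2. CPM stands for counts per unit of library size, with library sizes corrected by the trimmed mean of M-values.

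Ribosomal proteins are made in near equal numbers per ribosome and are among the most highly expressed genes of growing tissue. Most of their messenger RNAs begin with a terminal oligopyrimidine tract, a C followed by an unbroken run of pyrimidines, through which mTORC1 and the RNA-binding protein LARP1 control their translation. In humans, heterozygous loss of several of these genes causes Diamond-Blackfan anaemia, which can include cleft palate and other craniofacial anomalies. Unassembled Rpl5 and Rpl11, bound to 5S ribosomal RNA, inhibit Mdm2 and so stabilise p53.

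The start region of some members is shown because a pyrimidine tract there is the known feature of these messenger RNAs and the symbol rule did not use it. Each sequence runs from 60 bases before the start to 20 bases from it, from the RefSeq promoter table of build GRCm38.p6, and capitals mark the unbroken run of C and T that covers the start. The first 6 genes were picked because they have such a run. Rpl41 and Rplp0 are abundant members without one at the annotated start. The last 3 are tissue-restricted paralogues, also without one there.
Rps6 (chr4:86857348-86857427, minus strand): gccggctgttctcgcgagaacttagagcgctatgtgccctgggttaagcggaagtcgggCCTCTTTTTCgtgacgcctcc
Rpl38 (chr11:114668520-114668599, plus strand): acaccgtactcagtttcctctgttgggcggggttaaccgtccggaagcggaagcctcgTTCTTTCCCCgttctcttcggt
Rps15a (chr7:118116128-118116207, minus strand): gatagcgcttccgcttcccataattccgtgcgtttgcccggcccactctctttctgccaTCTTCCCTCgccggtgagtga
Rpl7a (chr2:26910747-26910826, plus strand): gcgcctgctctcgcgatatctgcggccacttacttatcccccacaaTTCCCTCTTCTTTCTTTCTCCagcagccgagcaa
Rpl39 (chrX:37085203-37085282, minus strand): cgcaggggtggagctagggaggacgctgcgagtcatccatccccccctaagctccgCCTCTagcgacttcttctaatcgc
Rps27 (chr3:90213629-90213708, minus strand): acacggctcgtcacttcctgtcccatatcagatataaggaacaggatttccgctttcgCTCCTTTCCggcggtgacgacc
Rpl41 (chr10:128549149-128549228, minus strand): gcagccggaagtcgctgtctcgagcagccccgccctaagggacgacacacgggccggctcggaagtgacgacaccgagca
Rplp0 (chr5:115559407-115559486, plus strand): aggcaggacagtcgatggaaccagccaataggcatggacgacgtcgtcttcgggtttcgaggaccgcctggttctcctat
Rpl39l (chr16:10170168-10170247, plus strand): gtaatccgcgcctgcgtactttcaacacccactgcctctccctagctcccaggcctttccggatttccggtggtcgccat
Rpl10l (chr12:66284382-66284461, minus strand): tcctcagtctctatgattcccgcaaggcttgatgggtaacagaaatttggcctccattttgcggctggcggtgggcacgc
Rpl3l (chr17:24727766-24727845, plus strand): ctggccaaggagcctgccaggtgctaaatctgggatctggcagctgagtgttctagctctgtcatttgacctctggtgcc

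Promoters were matched for 60 of the 80 members, and a run of C and T of any length covered the annotated start in 25 of these and not in the other 35. The annotated starts were not checked against the starts used in the palate. A tract that lies away from the annotated start is not counted, so the 35 are not shown to lack one. A C at the annotated start followed by 4 further C or T bases occurred in 12 of them (20%), against 2.26% of 16251 promoters in the table. The 12 were Rpl14, Rpl15, Rpl28, Rpl35, Rpl38, Rplp2, Rps6, Rps10, Rps15a, Rps18, Rps21 and Rps27. A run of 8 pyrimidines within 10 bases of the start occurred in 17 members (28.3%), against 7.29% of all promoters. The tract of Rpl7a begins before the annotated start and counts for the second measure only. On either strand of the 250 bases before the start, CCGGAA, the core bound by ETS factors, was found in 22 members (36.7%) and in 15.6% of all promoters. AAGATGGC, a form of the YY1 motif, was looked for on either strand from there to 50 bases after the start and found in 4 members (6.67%) and in 3.34% of all promoters. TATAAA was looked for on the gene's strand between 40 and 11 bases before the start, where 0 members and 2.85% of all promoters held it. These matches describe letters in a window and do not show binding.

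Levels per length, in RPKM (CPM per kilobase of a reference transcript) averaged over the 6 libraries, spread over a 14.4-fold range among the 73 members with a mean of at least 10 CPM. They ran between 95.7 for Rps27l and 1380 for Rpl41, with a median of 640 (538 for large and 664 for small subunit members). The range and medians depend on the reference transcript taken for each gene. Rpl41, the smallest ribosomal protein, had 1310 ± 444 RPKM in KO and 1450 ± 168 RPKM in WT (SD, n = 3 each). Rpl23a, at the exit of the peptide tunnel, came next with 1270 ± 323 RPKM in KO and 1300 ± 114 RPKM in WT. Rps12 of the small subunit came after it with 1100 ± 338 RPKM in KO and 1080 ± 74.7 RPKM in WT. The order of these neighbours is within their spread between libraries.

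In all, 4 core ribosomal proteins and a set of paralogues lay far below this range. Rps27 had 9, 12 and 9 counts in KO replicates 1, 2 and 3 and 27, 39 and 19 counts in WT replicates 2, 3 and 4. Rpl26 had 15, 4 and 12 counts in KO and 16, 16 and 12 counts in WT. 2 further core members, Rpl30 and Rpl34, had 29 to 58 and 18 to 59 counts in KO and 65 to 86 and 61 to 82 counts in WT. Counts this far below those of the other core members were compared with how much sequence each gene shares with other genes. Reads with more than one alignment were listed apart from gene counts and made up 30.3%, 18.1% and 27.7% of the listed pairs in KO replicates 1, 2 and 3 and 18.4%, 20.7% and 21% in WT replicates 2, 3 and 4. Of the 25-base stretches of its reference transcript, the read length used here, Rps27 had 1.25% that occur in no other gene, Rpl26 20.9%, Rpl34 32.9% and Rpl30 45.2%. The median over members was 36.9%. For 42 members, at least 50% of the stretches recur in 1 or more pseudogenes, 162 pseudogenes in all, with 17 for Rpl7a. Rpl36, with 3.06% unique stretches, had 183, 81 and 176 CPM in KO replicates 1, 2 and 3. In WT replicates 2, 3 and 4 it had 149, 167 and 187 CPM. Over the 73 members with at least 10 CPM, the RPKM in WT and the unique share had r = -0.442 (Spearman -0.389). This is a description across genes that share libraries, and RPKM is itself divided by transcript length. The 73 leave out Rps27, Rpl26, Rpl30 and Rpl34, so whether shared sequence goes with their low counts was not tested. Pairs with more than one alignment entered no gene's count, so members with near-identical copies can be counted too low. How many pairs each member lost in this way is unknown, as are the alignment settings used. Levels of these genes are therefore uncertain, and those of Rps27, Rpl26, Rpl30 and Rpl34 most of all.

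**Figure D1:**
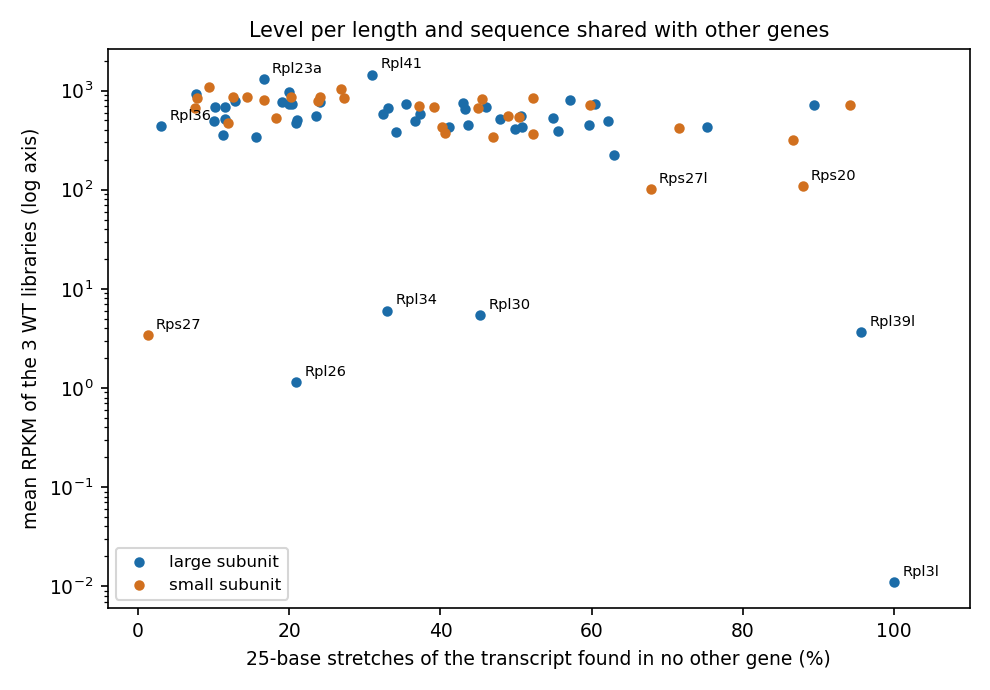
Mean RPKM of the 3 WT libraries (log axis) against the percentage of 25-base stretches of each reference transcript found in no other gene, 1 point per gene, with large and small subunit genes in separate colours. Rps27, Rpl26, Rpl30, Rpl34 and the paralogues Rpl39l and Rpl3l lie far below the other members. Rpl3l is lowest, on 1 count in WT replicate 3, and Rpl36 shows a low unique share beside a usual level.

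The paralogues that the symbols include are restricted to particular tissues or conditions in adult mice. Rpl10l, a testis retrogene, had 0 counts in every library, which allows at most 0.107 to 0.227 CPM per library (3 counts, counting error only). Rpl3l, the form of heart and skeletal muscle, had 0 counts in the KO libraries and 1 count in WT replicate 3. Rps27l, a p53-induced relative of Rps27, was well detected, with 60.6, 24.4 and 49.7 CPM in KO replicates 1, 2 and 3 and 44.6, 50.8 and 56.4 CPM in WT replicates 2, 3 and 4. Rpl39l, a relative of Rpl39 best known in testis, was detected at a low level. The coding starts of both pairs are given to show how far reads can tell them apart, with bases that differ within a pair in capitals.
Rps27, coding bases 1 to 90: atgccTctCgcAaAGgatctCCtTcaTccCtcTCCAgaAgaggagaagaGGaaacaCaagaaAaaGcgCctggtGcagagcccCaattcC
Rps27l, coding bases 1 to 90: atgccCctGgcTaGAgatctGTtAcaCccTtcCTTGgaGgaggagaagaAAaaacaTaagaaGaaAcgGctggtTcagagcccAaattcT
Rpl39, coding bases 1 to 90: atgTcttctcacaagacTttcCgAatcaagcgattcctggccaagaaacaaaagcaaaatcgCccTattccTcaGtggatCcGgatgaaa
Rpl39l, coding bases 1 to 90: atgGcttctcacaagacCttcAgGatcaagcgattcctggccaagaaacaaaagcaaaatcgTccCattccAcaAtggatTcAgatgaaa
Over the whole coding sequence Rps27 and Rps27l differ at 61 of 255 positions (76.1% identity), and Rpl39 and Rpl39l differ at 23 of 156 (85.3% identity). In the stretches shown they differ at 24 and 10 of 90 positions. Of their 25-base stretches, 67.8% are unique in Rps27l, 75.3% in Rpl39 and 95.6% in Rpl39l.

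Across KO and WT palatal shelves, 78 members had enough counts to be tested, 47 of the large and 31 of the small subunit. None passed the threshold with all 6 libraries (0 of 78 at an adjusted p under 0.05, edgeR quasi-likelihood test with Benjamini-Hochberg adjustment over all 14233 genes tested), against 0.534% of all genes. At an unadjusted p under 0.05 there was 1 member (14.20% of all genes). DESeq2 and limma voom also called 0 members, against 486 and 60 of the 14233 genes tested. The log2 fold change, KO over WT, was negative for 66 members and positive for 12, while 51.5% of all genes were positive. Its median was -0.09, with quartiles at -0.14 and -0.04, and 0.01 over all genes. Large subunit members had a median of -0.10 and small subunit members -0.08. The intervals set what could be seen: the 95% interval reached a median of 0.57 to either side on the log2 scale, lay within a 2-fold change for 75 members and within a 1.5-fold change for 20. In bulk tissue, fewer cells of a type and less RNA per cell cannot be told apart.

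Without KO replicate 2 most signs turned. The log2 fold change was then positive for 74 members and negative for 4 (53.3% of all genes positive), with a median of 0.14, quartiles at 0.10 and 0.18, and 0.02 over all genes. The medians were 0.14 for large and 0.15 for small subunit members. Again 0 of 78 passed the threshold, against 2.12% of the 14450 genes tested, and 6 had an unadjusted p under 0.05 (16.5% of all genes). These 6 were Rpl39l, Rpl35a, Rps26, Rps28, Rpl23 and Rps20, with adjusted p = 0.129 to 0.294 (edgeR), and all but Rpl39l were higher in KO. The median reach of the 95% interval shrank to 0.20, and 71 members had an interval within a 1.5-fold change. Among members with at least 10 CPM the highest log2 fold change was 0.36 for Rpl39 and the lowest -0.02 for Rps2.

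**Figure D2:**
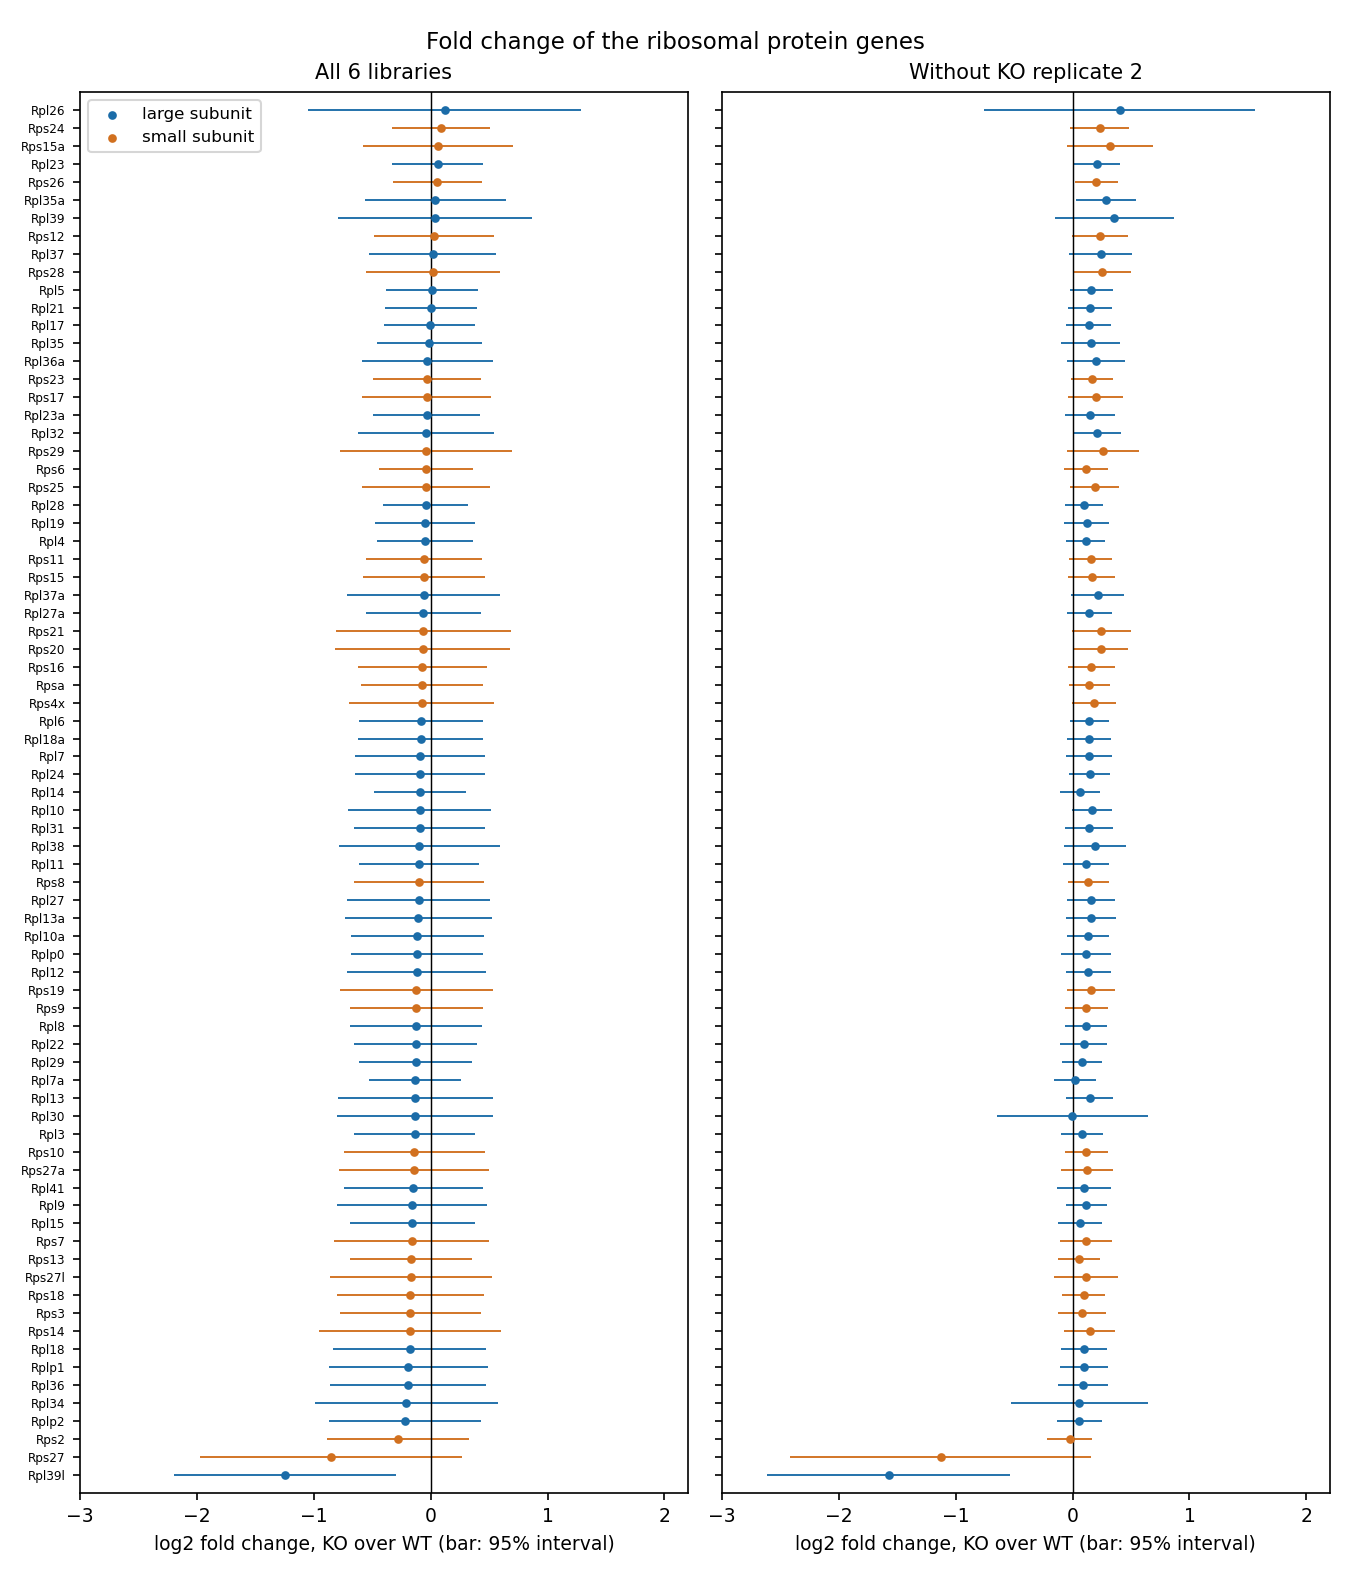
Log2 fold change, KO over WT, of the ribosomal protein genes tested, 1 of which is not drawn, with all 6 libraries (left) and without KO replicate 2 (right), 1 row per gene in the same order, bars showing the 95% interval. With all libraries most points lie left of 0, and without KO replicate 2 most lie right of it, with shorter bars.

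The order of the 6 libraries was similar from member to member. KO replicate 2 was the lowest of the 6 libraries in 76 of 78 members, against 36.3% of all genes, the exceptions being Rpl39l and Rps27. KO replicate 1 was the highest in 61 members (13.7% of all genes). KO replicate 3 lay within the WT range in 53 members (37.2% of all genes) and above it in 22 (35% of all genes). Within WT, replicate 4 was the highest and replicate 2 the lowest in 73 members each (36.2% and 36.3% of all genes). The members share their libraries, so these counts are not independent observations.

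Relative to the mean of the WT libraries, the median of the 73 members with at least 10 CPM was 116%, 58.9% and 106% in KO replicates 1, 2 and 3 and 92.8%, 99.4% and 108% in WT replicates 2, 3 and 4. In KO replicate 2 the members ran between 42.9% for Rps14 and 82.4% for Rps24, so all 73 lay under the WT mean. KO replicate 1 ran between 97.5% for Rps2 and 158% for Rpl39, and KO replicate 3 between 98.3% for Rps27l and 113% for Rpl8. The spread among members was tighter than among genes at large, a comparison that was not matched for level. Its SD on the log2 scale was 0.126, 0.219 and 0.0413 in KO replicates 1, 2 and 3 and 0.0238 to 0.0334 in WT libraries, against 0.326, 0.672 and 0.31 in KO and 0.15 to 0.236 in WT over the 9546 genes with at least 10 CPM. Rps14, Rps24, Rpl8 and Rpl39 stand here as the ends of these ranges, chosen after their values were seen where the naming rule does not hold them.

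**Figure D3:**
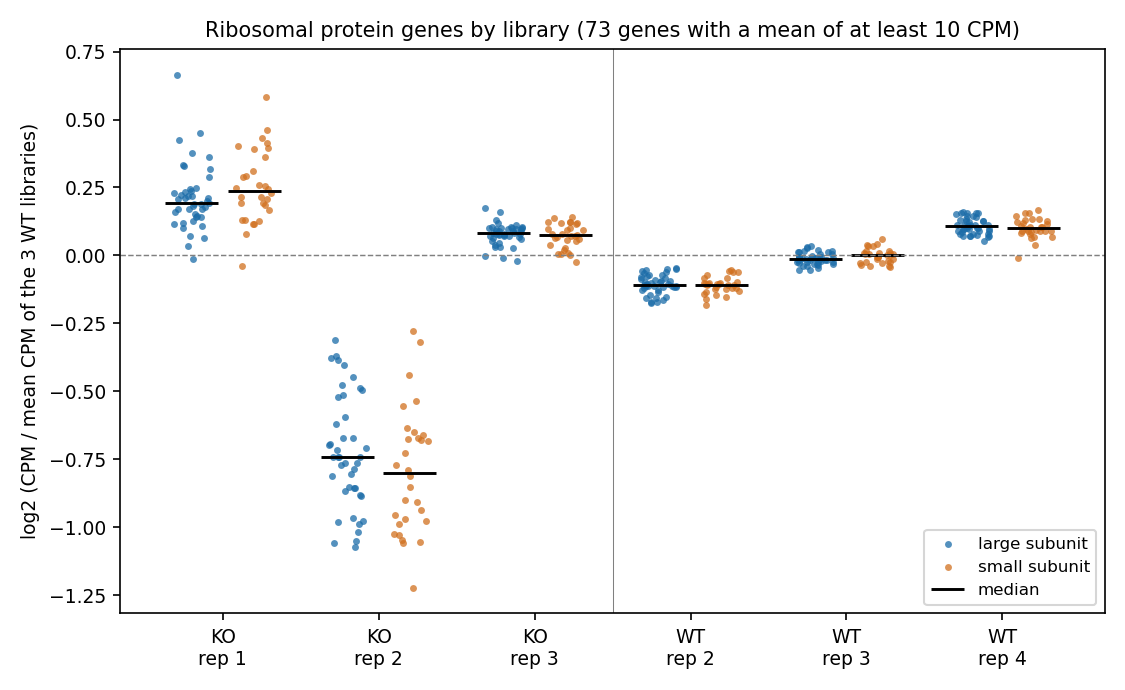
Log2 of CPM over the mean CPM of the 3 WT libraries for 73 ribosomal protein genes, 1 point per gene, in KO replicates 1, 2 and 3 (left) and WT replicates 2, 3 and 4 (right), with large and small subunit genes side by side and black lines at their medians. All points of KO replicate 2 lie below 0, and the points of KO replicate 3 and of the WT libraries form narrow bands.

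Both subunits showed the same order of libraries. Summed over all members, CPM reached 41779, 22030 and 38244 in KO replicates 1, 2 and 3 and 33618, 35812 and 38876 in WT replicates 2, 3 and 4. KO averaged 34020 ± 10530 CPM and WT 36100 ± 2641 CPM (SD, n = 3 each), and KO without replicate 2 averaged 40010 CPM. The ratio of small to large subunit CPM was 0.683, 0.628 and 0.662 in KO and 0.665, 0.669 and 0.665 in WT. The WT range of this ratio was narrow, and KO libraries lay on both sides of it. As a plain share of gene counts the members took 3.49%, 2.29% and 3.43% in KO and 3.79%, 3.84% and 4.11% in WT, which puts every KO library below every WT library. With Rn45s, which carries ribosomal RNA sequence, and Lars2 taken out of the total, the share was 5.67%, 2.87% and 5.09% in KO and 4.59%, 4.89% and 5.28% in WT, and the groups overlapped. Rn45s alone took 35.1%, 18.6% and 30% of gene counts in KO and 16.2%, 19.8% and 20.7% in WT. Without KO replicate 2, KO averaged 3.46% and WT 3.91% of gene counts, but 5.38% and 4.92% once both features were taken out, so the sign depends on the total used. With both features left out before normalisation, the median log2 fold change was -0.12 with all libraries and 0.14 without KO replicate 2.

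Among large subunit members, Rpl5 had 1050, 684 and 940 CPM in KO replicates 1, 2 and 3 and 846, 875 and 928 CPM in WT replicates 2, 3 and 4. KO replicates 1 and 3 lay above the WT range and KO replicate 2 below it. Its log2 fold change was 0.01 with a standard error of 0.17 (edgeR adjusted p = 0.979) and 0.16 with a standard error of 0.08 without KO replicate 2 (adjusted p = 0.366). Rpl11, its partner in the 5S particle, had 468, 257 and 439 CPM in KO and 384, 410 and 453 CPM in WT. KO replicate 3 of Rpl11 lay inside the WT range, and its log2 fold change was -0.10 with all libraries and 0.12 without KO replicate 2. Rplp0, the base of the ribosomal stalk, had 1130, 603 and 1100 CPM in KO and 919, 1010 and 1140 CPM in WT. The stalk protein Rplp2 had 159, 68.7 and 141 CPM in KO and 132, 146 and 151 CPM in WT. KO replicate 2 was the low library in both.

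Mouse mutants with visible phenotypes are known for several members. Rpl38, mutated in Tail short mice, which have axial skeletal defects, had 190, 75 and 146 CPM in KO replicates 1, 2 and 3 and 138, 143 and 158 CPM in WT replicates 2, 3 and 4. Rpl24, mutated in Belly spot and tail mice, had 396, 201 and 367 CPM in KO and 321, 346 and 362 CPM in WT. Rps20, mutated in a dark skin mouse line, had 528, 193 and 421 CPM in KO and 371, 401 and 425 CPM in WT. In these 3 genes KO replicate 1 lay above all WT libraries and KO replicate 2 at 58.7% or less of the WT mean. Rps19, the first gene found mutated in Diamond-Blackfan anaemia, had 326, 141 and 286 CPM in KO and 252, 272 and 296 CPM in WT. For Rps19 the log2 fold change was -0.12 (95% interval -0.78 to 0.53) with all libraries and 0.15 (-0.05 to 0.36) without KO replicate 2. Of the 19 Diamond-Blackfan genes among the members, 0 were called in either comparison (0.534% and 2.12% of all genes), with medians of -0.04 and 0.16.

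**Figure D4:**
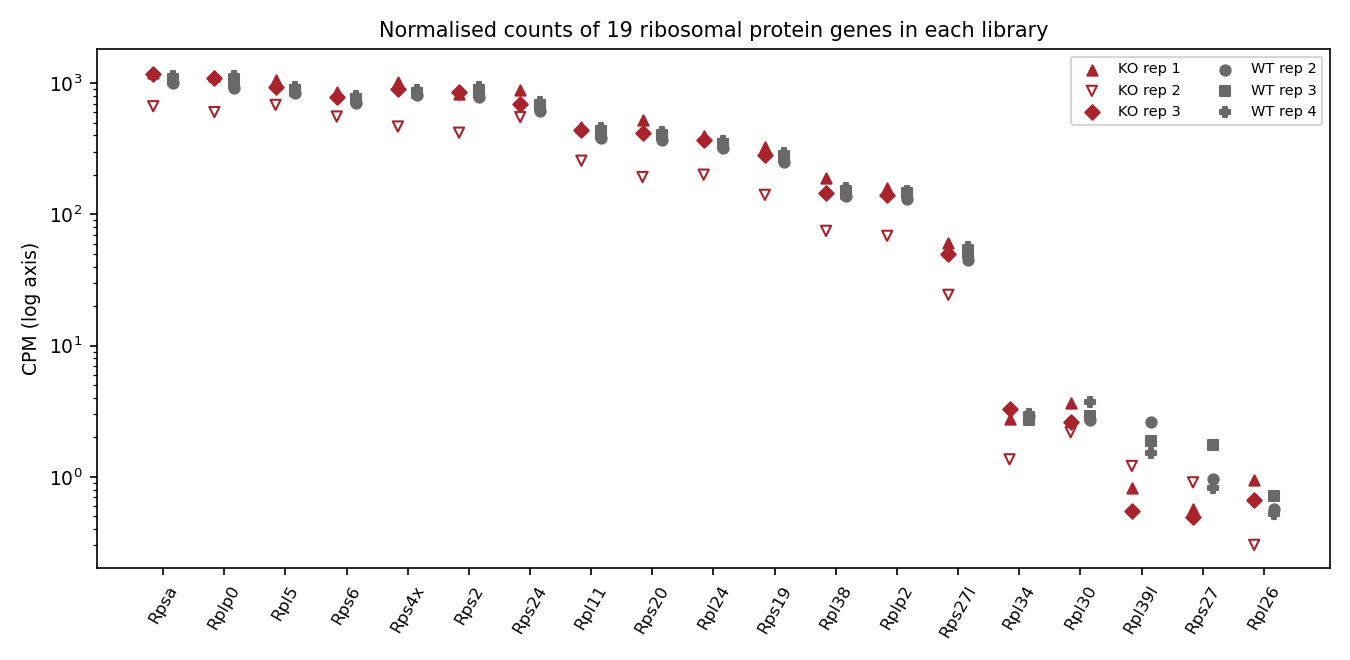
CPM (log axis) of 19 ribosomal protein genes in each library, KO libraries left of WT libraries within each gene and KO replicate 2 as an open symbol. KO replicate 2 is lowest in every gene shown except Rpl39l and Rps27, and 5 genes lie under 4 CPM in all libraries.

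In the small subunit, Rps6, the target of S6 kinase downstream of mTORC1, had 862, 558 and 788 CPM in KO replicates 1, 2 and 3 and 708, 759 and 806 CPM in WT replicates 2, 3 and 4. Only KO replicate 1 lay above the WT range. Rpsa, also known as a laminin receptor, had 1200, 668 and 1180 CPM in KO and 1010, 1060 and 1140 CPM in WT. Rps4x, encoded on the X chromosome, had 1030, 468 and 900 CPM in KO and 808, 840 and 883 CPM in WT. The X chromosome held 4 members and chromosome 7 held 14, the most of the 19 chromosomes with members. Rps24 had the highest log2 fold change among members with at least 10 CPM and all libraries, with 883, 553 and 700 CPM in KO and 616, 674 and 722 CPM in WT. Its log2 fold change was 0.09 with a standard error of 0.18 (edgeR adjusted p = 0.841). Rps2 had the lowest, with 834, 420 and 860 CPM in KO and 788, 847 and 932 CPM in WT. For Rps2 it was -0.28 with a standard error of 0.26 (edgeR adjusted p = 0.624) and -0.02 with a standard error of 0.09 without KO replicate 2 (adjusted p = 0.927). Rps2 is also a multicopy case, with 16 pseudogenes that share at least 50% of its stretches.

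KO replicate 2 was also the lowest library in the other named members of usual abundance. Rps15a had 360, 151 and 244 CPM in KO replicates 1, 2 and 3 and 232, 251 and 239 CPM in WT replicates 2, 3 and 4. Rpl35a had 394, 181 and 313 CPM in KO and 261, 292 and 312 CPM in WT. Their log2 fold changes without KO replicate 2, 0.32 and 0.29, stood beside KO replicate 1 values well above those of KO replicate 3. Rpl23, Rps26 and Rps12 had log2 fold changes of 0.06, 0.06 and 0.03 with all libraries and 0.21, 0.20 and 0.23 without KO replicate 2.

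Rpl39l was the 1 member whose groups did not overlap with all 6 libraries (23.5% of all genes). It had 0.823, 1.21 and 0.552 CPM in KO replicates 1, 2 and 3 and 2.60, 1.88 and 1.51 CPM in WT replicates 2, 3 and 4. All KO libraries were lower than all WT libraries, on 10 to 16 counts in KO and 35 to 73 in WT. Its log2 fold change was -1.25 (95% interval -2.20 to -0.30) with all libraries and -1.57 (-2.61 to -0.53) without KO replicate 2. It did not pass the threshold (edgeR adjusted p = 0.278 and 0.129). Over all fits its adjusted p was smallest, 0.081, in DESeq2 without KO replicate 2. Rpl39, its abundant relative, had 412, 131 and 258 CPM in KO and 240, 256 and 284 CPM in WT and no common direction among KO libraries. Rps27 also had a negative log2 fold change in both comparisons, -0.85 and -1.13, on 9 to 39 counts, with adjusted p = 0.433 and 0.37 (edgeR).

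Without KO replicate 2, the groups of 21 members did not overlap (34.3% of all genes), 19 of them higher in KO. Rpl39l and Rps27 were the 2 lower ones. With 2 KO libraries against 3 WT libraries, the members' share is no larger than that of all genes.

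Genes that work with the ribosome were listed to set the members in context. Over all genes 0.534% were called with all libraries and 2.12% without KO replicate 2. At those shares lists this short would hold few calls or none. The 6 ribosomal proteins that the symbol rule misses had medians of -0.10 and 0.14 with all libraries and without KO replicate 2, and 0 were called. Among them Rps3a1 had 1080, 601 and 1020 CPM in KO replicates 1, 2 and 3 and 891, 954 and 1020 CPM in WT replicates 2, 3 and 4. The 76 mitochondrial ribosomal proteins, which build the separate ribosome of mitochondria, had medians of -0.12 and 0.00, with 0 called. KO replicate 2 was lowest in 66 of them (36.3% of all genes). Of 19 translation factors and other messenger RNAs with pyrimidine tracts, 0 were called, with medians of -0.10 and 0.06. The elongation factor Eef1a1 had 6370, 4710 and 6910 CPM in KO and 6380, 6250 and 6690 CPM in WT. KO replicates 1 and 3 of Eef1a1 lay within or just above the WT range. Of 16 genes of mTORC1 and LARP1 control 0 were called, with medians of 0.09 and 0.02. The groups of 7 of the 16 did not overlap with all libraries (23.5% of all genes). Mtor, Tsc1, Tsc2, Larp1 and Eif4g1 were higher in KO, and Pdcd4 and Ddit4 lower.

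Of the 20 genes tested from a list of p53 (Trp53) and its targets, 1 fell and 0 rose in each comparison (0.534% and 2.12% of all genes were called). Btg2, an antiproliferative immediate early gene, had 14, 12.9 and 16.9 CPM in KO replicates 1, 2 and 3 and 26.4, 29.8 and 27.8 CPM in WT replicates 2, 3 and 4 (log2 fold change -0.94, edgeR adjusted p = 0.0451, and -0.86, adjusted p = 0.00726, without KO replicate 2). The groups of 4 of the 20 did not overlap with all libraries (23.5% of all genes), which were Btg2 and 3 genes that did not pass the threshold, named after their values were seen. Phlda3 had 15.2, 9.23 and 14.1 CPM in KO and 18.7, 17.7 and 20.4 CPM in WT. Perp had 48.3, 29.7 and 54.8 CPM in KO and 61.9, 65.4 and 69.4 CPM in WT. Zmat3 had 55.1, 52.4 and 58.8 CPM in KO and 45.7, 47.4 and 46.5 CPM in WT. Phlda3 and Perp were lower and Zmat3 higher in KO, with adjusted p = 0.307 to 0.323 (edgeR). The p53 target Cdkn1a, a cell cycle inhibitor, had 9.62, 20.1 and 14.1 CPM in KO and 16.1, 11.7 and 12.6 CPM in WT, with overlapping groups. Mdm2 had 46.5, 60.4 and 36.2 CPM in KO and 43.5, 41.2 and 36.5 CPM in WT, also overlapping. The medians of the list were 0.02 and 0.01. The 7 host genes of small nucleolar RNAs, some of which carry pyrimidine tracts, had medians of 0.30 and 0.17 and 0 were called. Among them the groups of 3 (Snhg3, Snhg5 and Snhg12, all higher in KO) did not overlap with all libraries (23.5% of all genes).

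Marker values and transcript properties moved with the libraries as well, and their part in the results was not tested except where a value is given. Erythroid markers, summed to 659, 253 and 1340 CPM in KO replicates 1, 2 and 3 and 507, 749 and 967 CPM in WT replicates 2, 3 and 4, with 6 of the 9 tested and Hba-a1 at 0 in every library. Epithelial markers summed to 499, 290 and 519 CPM in KO and 540, 607 and 675 CPM in WT. Without KO replicate 2, Krt18 and Cdh1 of the 8 were called lower (edgeR adjusted p = 0.0471 and 0.0483), against 2.12% of all genes called. In that comparison Krt14 and Trp63 had positive log2 fold changes, 0.12 and 0.04. KO replicate 2 was the lowest library in all 8 epithelial markers (36.3% of all genes). Endothelial markers summed to 182 to 208 CPM in KO and 228 to 251 CPM in WT. Leukocyte markers reached at most 24.3 CPM in KO and 32.4 CPM in WT. The neural list summed to 67.7 to 147 CPM in KO and 95.7 to 151 CPM in WT. In KO replicate 2 longer transcripts stood higher over all genes (r = 0.361 with log2 length and -0.281 with GC content over 9502 genes, a description). Within the members the shorter members (271 to 751 bases) stood at a median of 57.1% of the WT mean in KO replicate 2 and the longer members at 60.9%. Members of lower GC content stood at 61.2% and those of higher GC content at 57%, both split at the median. Removing each library's length and GC trend gave a median log2 fold change of -0.06 with all libraries and 0.15 without KO replicate 2. These fits called 0 members, against 82 of 14126 and 405 of 14340 genes tested.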

How the data were processed

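Stranded messenger RNA libraries of 6 samples were sequenced as paired 25 bp reads, per the labels' protocols. Each library has 1 deposited file of the authors' raw counts per gene symbol. The submitters' processing notes name TopHat2, SAMtools and HTSeq, with mm9 as the build. Versions, the annotation and the settings for strand and multiple alignments are not named there, and a wrong strand or copy assignment would change values of overlapping and multicopy genes. The 5 category lines of the counting program were left out of the analysis; they held 33.6% to 65.8% of the listed pairs. Groups came from the sample titles.

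Counts were scaled by the trimmed mean of M-values, filtered with filterByExpr and tested with edgeR 4.0.16 (robust quasi-likelihood, no covariate, R 4.3.3) over all genes, with Benjamini-Hochberg adjustment at 0.05. CPM and RPKM were computed from the counts. RPKM used the shortest principal protein-coding transcript of each gene in GENCODE M21, so a long annotated form lowers the value. The longest used were those of Rps20 (3706 bases), Rpl5 (2045 bases), Rps3 (1908 bases) and Rps24 (1613 bases). Shared 25-base stretches were counted over all GENCODE transcripts, and no coordinates were moved between builds. Alternatives were median-of-ratios and upper-quartile factors, Rn45s and Lars2 left out, DESeq2 1.42.0, limma 3.58.1 voom, other filters, each library left out, the replicate number as a block, removal of length and GC trends and, added after seeing the data, voom with library quality weights.

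The members and lists were chosen with earlier results of these data known, so no list was tested as a set. Named were any members past the threshold, the 3 highest and 3 lowest fold changes of each subunit, the 3 highest and 3 lowest RPKM at 1 CPM or more, the paralogues, and Rpl5, Rpl11, Rps19, Rps6, Rpl38, Rpl24, Rps20, Rpsa and Rplp0. Others named were chosen after their values were seen. The single values of 1 further gene that this rule takes are not reported here.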

Additional observations from a re-analysis of the deposited data

How the results depend on the processing

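No ribosomal protein gene was called in any of the 17 fits that start from 6 libraries or in the 9 fits without KO replicate 2. The edgeR fit without KO replicate 2 is counted in both totals. It gave the smallest adjusted p of the 17, 0.129, and DESeq2 without KO replicate 2 that of the 9, 0.081, both for Rpl39l. With all 6 libraries edgeR gave Rpl39l an adjusted p of 0.278. Counts of calls over all genes moved more: 76 with all libraries, 486 with DESeq2, 113 with no filter, 298 with the replicate block, 316 with quality weights, 306 without KO replicate 2 and 0 to 20 with any other library left out. Without KO replicate 2, DESeq2 called 691 and edgeR 306.

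The median log2 fold change of the members was negative in each fit with all libraries except voom with library quality weights, which gave 0.108 (0.107 for large and 0.12 for small subunit members) and weighted KO replicate 2 at 0.178 and the other libraries at 0.755 to 2.01. With single libraries left out it ran between -0.272 without KO replicate 1 and 0.141 without KO replicate 2 (large subunit -0.266 to 0.137, small subunit -0.298 to 0.154). It was -0.16 with limma voom. Without KO replicate 2 the alternatives gave 0.133 to 0.146. The labels do not pair the samples, and the groups share only numbers 2 and 3, whose deviations from their group means correlated at 0.207 and -0.141. With the replicate block the median was -0.283 (large -0.272, small -0.331). In that fit KO replicate 1 and WT replicate 4 share their number with no other library. Its KO effect, its calls and its sign changes therefore rest on replicates 2 and 3 of each group.

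Signs of single members, none of them called, turned with several settings, and the cause was not tested. With quality weights these log2 fold changes became positive: Rpl11 0.090, Rpl23a 0.147, Rpl24 0.110, Rpl30 0.075, Rpl38 0.181, Rpl41 0.069, Rplp0 0.076, Rplp2 0.018, Rps19 0.120, Rps20 0.210, Rps27l 0.101, Rps4x 0.154, Rps6 0.109, Rpsa 0.104. With the replicate block these became negative: Rpl23 -0.082, Rpl26 -0.429, Rpl35a -0.211, Rpl5 -0.102, Rps12 -0.181, Rps15a -0.331, Rps24 -0.051, Rps26 -0.061. With limma voom they were Rpl35a -0.034, Rpl5 -0.013, Rps12 -0.025, Rps15a -0.030. With the length and GC trend removed they were Rpl35a -0.063, Rpl5 -0.025, Rps12 -0.048, Rps15a -0.007, Rpsa 0.087. With upper-quartile factors this was Rpl5 -0.001, with Rn45s and Lars2 left out Rpl5 -0.015, Rps12 -0.000, and with no filter Rpl5 -0.017, Rps12 -0.001. With single libraries left out, these members changed sign, with their lowest and highest values: Rpl11 (-0.255 to 0.116), Rpl23 (-0.095 to 0.207), Rpl23a (-0.197 to 0.147), Rpl24 (-0.271 to 0.145), Rpl26 (-0.243 to 0.403), Rpl30 (-0.363 to 0.010), Rpl34 (-0.462 to 0.059), Rpl35a (-0.219 to 0.288), Rpl38 (-0.406 to 0.189), Rpl41 (-0.338 to 0.097), Rpl5 (-0.121 to 0.161), Rplp0 (-0.264 to 0.114), Rplp2 (-0.445 to 0.058), Rps12 (-0.198 to 0.234), Rps15a (-0.284 to 0.318), Rps19 (-0.354 to 0.154), Rps20 (-0.376 to 0.241), Rps24 (-0.098 to 0.231), Rps26 (-0.079 to 0.202), Rps27l (-0.443 to 0.116), Rps4x (-0.302 to 0.185), Rps6 (-0.169 to 0.115), Rpsa (-0.213 to 0.144). Rpl39l, Rps27, Rpl26, Rpl30 and Rpl34 rest on few counts, which limits their precision.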
